A study of Homo sapiens with 20 samples.

Results

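Transcripts of 10 antioxidant enzymes were followed through erythroid differentiation of HUDEP-2 cells. The enzymes were the 6 peroxiredoxins (PRDX1, PRDX2, PRDX3, PRDX4, PRDX5 and PRDX6), catalase (CAT), the glutathione peroxidases GPX1 and GPX4, and the copper-zinc superoxide dismutase SOD1. They were taken by symbol from the tables and their transcripts were summed by gene, which gave 10 genes of 46425 and 29 RefSeq transcripts of 170322. HUDEP-2 is 1 immortalized line of human erythroid progenitors made from umbilical cord blood, here unedited, so all libraries share 1 genetic background. Day 0 cells came from the expansion medium with erythropoietin, stem cell factor and doxycycline, to which the study's methods add dexamethasone. The other cells from the differentiation medium, which held the first 3 of these agents and in addition holo-transferrin, human serum, heparin and insulin. Effects of the change of medium and of differentiation cannot be told apart in comparisons with day 0. Stem cell factor was left out from day 6 and doxycycline from day 8. In comparisons of day 8 or day 12 with earlier days, effects of these changes cannot be told apart from those of stage either. The study places day 0 at the proerythroblast stage, days 4 to 6 at the basophilic stages, day 8 at the polychromatic stage and day 12 at the orthochromatic and reticulocyte stage, and cells with a nucleus, extruded nuclei and enucleated cells were together in the day 12 culture. RNA was sequenced on 10 days with 2 libraries a day, 20 in all, with 52131713 to 70358198 counts per library (median 61806912). The study's text calls its libraries from before differentiation and from day 8 biological replicates. The labels do not say whether the 2 libraries of a day came from separate cultures, so p-values measure the spread between these libraries, which may be technical.

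Red cells carry oxygen on heme iron, and hemoglobin that oxidizes releases superoxide. SOD1 turns superoxide into hydrogen peroxide, and catalase, glutathione peroxidases and peroxiredoxins remove the peroxide. Peroxiredoxins use a reactive cysteine, which thioredoxin reduces again and which sulfiredoxin rescues when it has been over-oxidized. PRDX2 is among the most abundant proteins of the mature red cell. Glutathione peroxidases draw on glutathione, GPX1 and GPX4 carry selenocysteine, and GPX4 is the member that reduces lipid peroxides in membranes.

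The labelled cell type was checked against marker genes. All 9 erythroid markers (GATA1, KLF1, ALAS2, TFRC, EPOR, SLC4A1, HBA1, HBB and HBG1) were detected on every day. Their summed level was 26473 and 28814 TPM at day 0 and 442741 and 483900 TPM at day 12, with HBB the most abundant. TPM is a transcript's share of its library after scaling for transcript length, on a total of 1000000. Markers of mast cells and basophils were unevenly present at the start. The 7 of them summed to 2692 and 1587 TPM at day 0 and to 9.66 and 5.86 TPM at day 12. At day 0 nearly all of the sum was TPSB2 (1114 and 614 TPM), TPSAB1 (1009 and 527 TPM), KIT (349 and 305 TPM) and GATA2 (211 and 131 TPM). MS4A2 (8.00 and 3.66 TPM), CPA3 (0.815 and 6.04 TPM) and HDC (0 and 0.0643 TPM) were low then. MS4A2 and CPA3 were at 0 counts on day 12. Megakaryocyte markers summed to 69.0 TPM in library A and 10.7 TPM in library B of day 0, nearly all of it ITGA2B, with PF4, PPBP, GP1BA and VWF at 0. Monocyte, macrophage and granulocyte markers summed to at most 32.5 TPM in any library, with ELANE at 0 throughout. The part of these markers in the results for the antioxidant enzymes was not tested. In bulk RNA, a change in the share of a cell type and a change in RNA per cell cannot be told apart.

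For each day, library A is the one in the tables of separate days and library B the one in the table of all days. The library A of day 7 and that of day 8 stood apart, with 18.5% and 17.5% of their counts on ribosomal RNA genes against 1.03% to 4.08% in the other 18 libraries. PRDX5 was higher in library A on 10 of 10 days, PRDX1 higher in library B on 10 of 10 days, and PRDX3, PRDX4 and PRDX6 higher in library B on 9 of 10 days, so for these genes the difference between the sets of tables ran through all or nearly all of the course. Globin genes took 2.91% and 2.90% of the TPM at day 0, 30.1% and 25.3% on day 8 and 59.4% and 63.0% on day 12. A gene whose TPM fell by day 12 can therefore still have risen against the typical gene, and the counts, scaled with TMM factors that hold the bulk of genes level, are given beside the TPM below.

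On the TPM scale, the 10 genes together made up 0.487% and 0.472% of all transcripts on day 0, at most 0.819% (library B of day 7), and 0.291% and 0.268% on day 12. With the globin genes taken out of the total, their share was 0.501% and 0.486% on day 0, 0.931% and 1.04% on day 8 and 0.718% and 0.724% on day 12. PRDX2 had the highest mean level on each of the 10 days and SOD1 the next highest, overlapping with CAT on days 7 and 8. On day 0 the order below them was PRDX1 (573 TPM), CAT (367 TPM), GPX4 (357 TPM), PRDX6 (299 TPM), PRDX3 (263 TPM), GPX1 (257 TPM), PRDX5 (144 TPM) and PRDX4 (140.0 TPM). In it the values of CAT and GPX4, of PRDX6 and GPX1, of PRDX3 and GPX1, and of PRDX5 and PRDX4 overlapped between libraries. On day 12 GPX4 came next to SOD1 with overlapping values (551 and 586 TPM), followed by PRDX5 (297 TPM), CAT (235 TPM), PRDX6 (156 TPM), PRDX1 (98.9 TPM) and GPX1 (73.8 TPM), and PRDX4 and PRDX3 were last at 3.84 and 3.15 TPM. There the values of PRDX5 and CAT, of CAT and PRDX6, and of PRDX4 and PRDX3 overlapped between libraries.

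Of 16784 genes tested, 66% differed between days (edgeR quasi-likelihood test, adjusted p under 0.05), and all 10 members were among them. From day 0 to days 4 to 6, 2 of the 10 rose, PRDX2 and CAT, where 7.38% of all genes did, and 2 fell, PRDX1 and GPX1, where 9.22% of all genes did. With a block for the set of tables (A or B), the 1238 higher and 1547 lower genes of this step became 2108 and 2701. Leaving out single libraries lowered both counts, as given under the dependence on processing. From days 4 to 6 to day 8, 3 were higher on the TMM scale (PRDX2, PRDX6 and CAT; 11.9% of all genes) and 1 lower (PRDX4; 10.8% of all genes). With a block for the set of tables PRDX5 also passed as higher and GPX1 as lower, and the lower genes over the whole table went from 1815 to 3166. For that step 0 were higher and 4 lower with totals alone, and 0 and 5 on log2(TPM + 1). The share of all genes in this step also rested on the libraries, since 2001 higher and 1815 lower genes became 223 and 330 without library A of days 7 and 8, and 199 and 265 without library A of day 8 alone. From day 8 to day 12, 6 were higher on the TMM scale (PRDX1, PRDX5, PRDX6, GPX1, GPX4 and SOD1; 23.8% of all genes) and 3 lower (PRDX2, PRDX3 and PRDX4; 33.4% of all genes). These became 3 higher and 6 lower with totals alone, and 2 and 7 on log2(TPM + 1), where PRDX1, PRDX6 and SOD1 changed sign. From day 0 to day 12, 6 were higher on the TMM scale (PRDX2, PRDX5, PRDX6, CAT, GPX4 and SOD1; 29.7% of all genes) and 3 lower (PRDX1, PRDX3 and PRDX4; 38.5% of all genes). These became 2 higher and 8 lower on log2(TPM + 1), and 2 were higher with totals alone. With TMM the median log2 fold change of the members was -0.01, -0.01, 0.47 and 1.07 in these 4 comparisons, against -0.01, 0.01, -0.20 and -0.29 over all genes tested. The comparisons share libraries and are not independent of each other.

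The choice of scale moved the calls in every comparison. On log2 TPM the median of all genes fell by 1.81 from day 0 to day 12 and by 1.20 from day 8 to day 12, and limma on log2(TPM + 1) called 1700 genes higher and 11032 lower from day 0 to day 12, where edgeR with TMM called 4980 and 6461. With counts scaled to library totals alone, 2429 were higher and 9616 lower. From days 4 to 6 to day 8, edgeR with TMM called 2001 genes higher and 1815 lower, totals alone 900 and 3384, and limma on TPM 695 and 5213. From day 8 to day 12 the same 3 fits called 3997 and 5611, 1983 and 8127, and 1407 and 8997, and from day 0 to days 4 to 6 they called 1238 and 1547, 836 and 1525, and 760 and 2358. PRDX5 and GPX4 were higher and PRDX1, PRDX3 and PRDX4 lower on day 12 than on day 0 on all 3 scales, while PRDX2, PRDX6, CAT and SOD1 were above day 0 with TMM and below it on TPM.

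**Figure D1:**
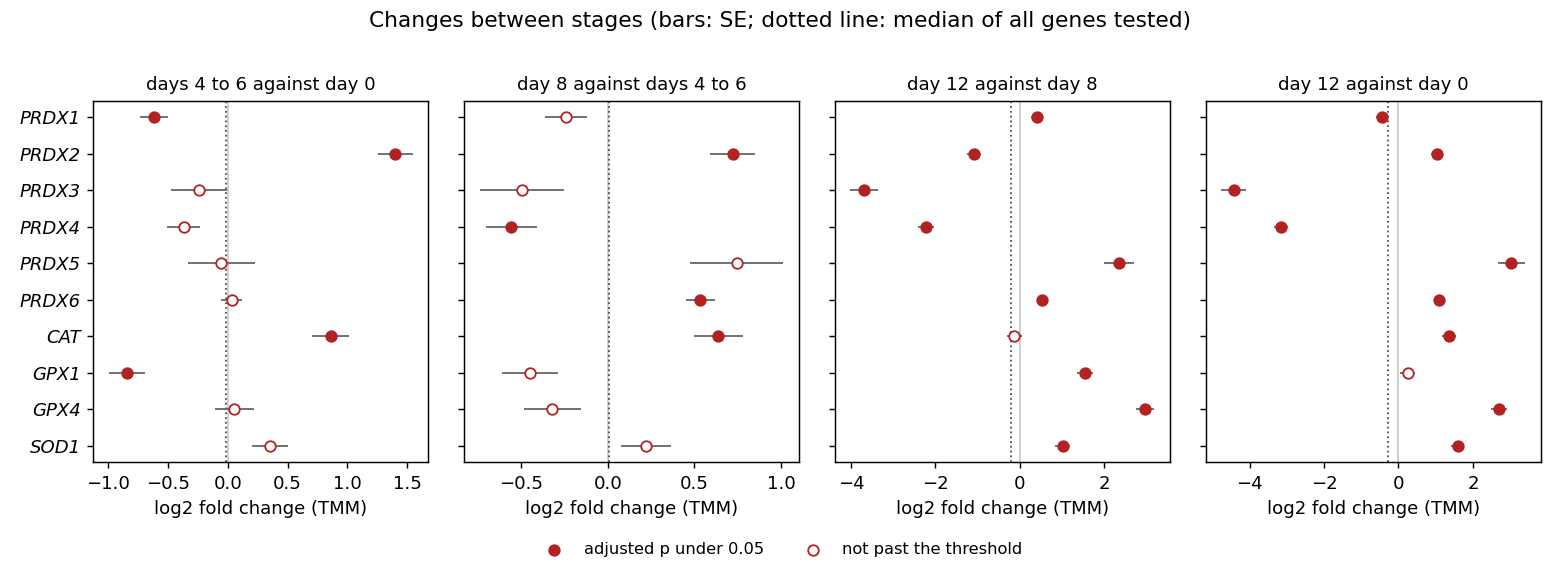
Log2 fold change of each gene (horizontal axis, counts scaled with TMM, edgeR) in 4 comparisons of stages, with bars for the SE, filled points for an adjusted p under 0.05 and a dotted line at the median of all genes tested. PRDX2 rose by 1.40 and 0.72 through day 8 and was lower by day 12 (-1.08), and the day 12 values of PRDX1, PRDX2, PRDX6, CAT, GPX1 and SOD1 against day 0 or day 8 change sign on TPM or totals alone in at least 1 of the 2 comparisons.

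PRDX2 (gene ID 7001, chr19:12796823-12801800 of hg38, minus strand, 1 RefSeq transcript) was the main peroxiredoxin transcript of these cells. Its level was 1651 and 1514 TPM at day 0 in libraries A and B, 1063 and 1433 TPM at day 1, 3075 to 4364 TPM (median 3747) in the 6 libraries of days 4 to 6, 4615 and 5606 TPM at day 7, 4127 and 5013 TPM at day 8, and 841 and 739 TPM at day 12. All 6 libraries of days 4 to 6 lay above both of day 0, and both of day 12 lay below every other library. The log2 fold change from day 0 to days 4 to 6 was 1.40 (SE 0.15, adjusted p = 4.25e-05). That from days 4 to 6 to day 8 was 0.72 (SE 0.13, adjusted p = 0.00233), which passed with TMM but was 0.28 on log2(TPM + 1) (adjusted p = 0.149). Day 12 was below day 8 on every scale, by -1.08 with TMM (SE 0.17, adjusted p = 7.90e-05). Against day 0 it was above by 1.04 with TMM (SE 0.17, adjusted p = 7.56e-05), -0.18 with totals alone and -1.002 on log2(TPM + 1). With globin genes removed its TPM was 2074 and 1996 against 1700 and 1559. Exons of 1 annotated non-coding RNA on the opposite strand cover 247 of its 2034 exon bases, and whether the counting used strand is not given in the sources used here.

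The share of PRDX2 among the peroxiredoxins was highest on day 7. PRDX2 held 54.5% and 50.9% of the summed peroxiredoxin TPM at day 0, 45.4% and 51.9% on day 1, 85.5% and 87.5% on day 7, 84.2% and 85.7% on day 8 and 58.5% and 58.6% on day 12. The sum itself was 3031 and 2972 TPM at day 0, 5399 and 6407 TPM at day 7 and 1438 and 1261 TPM at day 12. Between day 8 and day 12 the share of PRDX5 went from 3.69% and 2.13% to 22.0% and 22.1%, and that of PRDX6 from 5.80% and 5.10% to 12.2% and 10.8%. The shares do not depend on how much globin a library holds, since all 6 genes are divided by the same total.

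**Figure D2:**
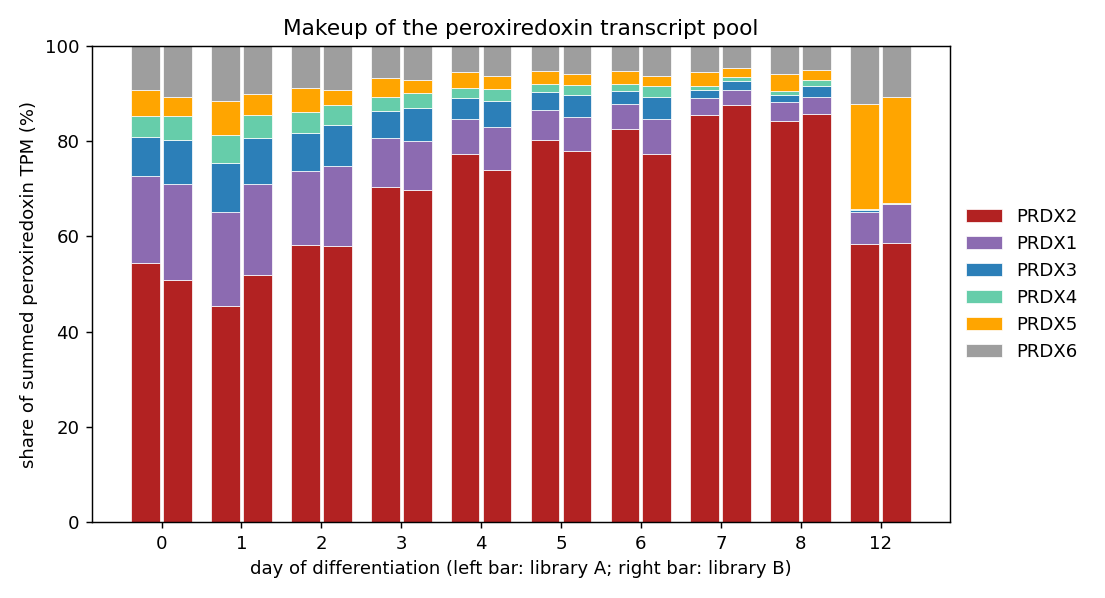
Share of each peroxiredoxin in the summed peroxiredoxin level (vertical axis, percent of TPM) on each day (horizontal axis), with the left bar for library A and the right bar for library B. The PRDX2 band widens from 54.5% and 50.9% on day 0 to 85.5% and 87.5% on day 7, and on day 12 PRDX5 takes 22.0% and 22.1%.

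PRDX1 (gene ID 5052, chr1:45511035-45522890, minus strand), the other abundant cytosolic member, fell to days 4 to 6 while PRDX2 rose. It was at 552 and 594 TPM at day 0, 273 to 375 TPM (median 341) on days 4 to 6, 195 and 214 TPM at day 8 and 95.4 and 102 TPM at day 12. No library of days 4 to 6 reached either of day 0. The log2 fold change to days 4 to 6 was -0.62 (SE 0.12, adjusted p = 0.00287). For day 12 the call rested on the scale and on single libraries: against day 8 it was 0.40 with TMM (adjusted p = 0.0320), 0.12 without library B of day 12 (adjusted p = 0.494), 0.29 without library B of day 8 (adjusted p = 0.207) and -1.04 on log2(TPM + 1). Against day 0 it was -0.45 with TMM (adjusted p = 0.0142), -0.23 without library A of day 12 (adjusted p = 0.156) and -2.52 on log2(TPM + 1). The opposite-strand gene MMACHC overlaps 501 of the 1682 exon bases of PRDX1, and had at most 2090 counts in any library, where PRDX1 had at least 4116.

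PRDX3, which works in mitochondria, and PRDX4, which works in the endoplasmic reticulum, fell together to a level near 0. PRDX3 (gene ID 10935, chr10:119167720-119178812, minus strand) was at 249 and 277 TPM at day 0, 143 to 228 TPM (median 211) on days 4 to 6, 76.4 and 137 TPM at day 8 and 4.70 and 1.60 TPM at day 12. PRDX4 (gene ID 10549, chrX:23667493-23686397, plus strand) was at 133 and 147 TPM at day 0, 79.4 to 108 TPM (median 100.1) on days 4 to 6, 36.0 and 63.3 TPM at day 8 and 4.38 and 3.29 TPM at day 12. Neither passed the test from day 0 to days 4 to 6 (PRDX3 -0.24, adjusted p = 0.561; PRDX4 -0.37, adjusted p = 0.0890), although all 6 libraries lay below day 0 for both. With a block for the set of tables PRDX4 passed (-0.37, adjusted p = 0.0351). From day 8 to day 12 PRDX3 fell by 3.69 (SE 0.33, adjusted p = 5.07e-07) and PRDX4 by 2.23 (SE 0.19, adjusted p = 2.93e-07) on the log2 scale with TMM. From day 0 to day 12 PRDX3 fell by 4.42 with TMM and by 6.10 on log2(TPM + 1). The values for PRDX4 were -3.15 and -4.87. The lowest count behind these values was 132, for PRDX3 in library B of day 12, so the loss was well above the limit of 3 counts. The call for PRDX4 on day 8 (-0.56, SE 0.15, adjusted p = 0.0171) was lost without library A of day 8, 1 of those rich in ribosomal RNA (-0.31, adjusted p = 0.353).

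PRDX5, found in mitochondria, peroxisomes and the cytosol, was the only peroxiredoxin with its highest TPM on day 12, while on counts scaled with TMM that of PRDX6 was highest then too. PRDX5 (gene ID 25824, chr11:64318121-64321811, plus strand) was at 166 and 123 TPM at day 0, 100.2 to 148 TPM (median 126) on days 4 to 6, 181 and 124 TPM at day 8 and 316 and 278 TPM at day 12. Both libraries of day 12 lay above all 18 others. Day 8 against days 4 to 6 was 0.74 with TMM (adjusted p = 0.0642), and their TPM overlapped. Within each set of tables day 8 lay above all of days 4 to 6, and a block for the set gave 0.72 (adjusted p = 0.00222). From day 8 to day 12 it rose by 2.35 on the log2 scale with TMM (SE 0.36, adjusted p = 8.26e-05) and from day 0 by 3.03 (SE 0.37, adjusted p = 6.71e-06). On log2(TPM + 1) the rise from day 0 was 1.05 (adjusted p = 0.00489). Its transcript variant 1 held 63.5% and 70.4% of the PRDX5 TPM at day 0 and 48.2% and 52.0% on day 12. Variant 5 held 30.0% and 22.9% on day 0 and 43.8% and 39.5% on day 12, and in TPM it went from 49.7 and 28.1 to 138 and 110.0. Variant 5 starts at position 64318286, which is 70 bases downstream of the annotated start codon of variant 1, the codon from which the mitochondrial targeting sequence is read. The variants share most of their bases, and how their reads were divided is not given in the sources used here.

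PRDX6, the member with a single active cysteine, had a narrow range before day 12. PRDX6 (gene ID 9588, chr1:173477335-173488815, plus strand, 1 transcript) ranged from 245 to 317 TPM through day 8 (18 libraries) and was at 176 and 136 TPM at day 12, below all of them. With TMM it rose by 0.53 from days 4 to 6 to day 8 (SE 0.08, adjusted p = 0.00103), but the value was 0.21 with totals alone (adjusted p = 0.124) and 0.09 on log2(TPM + 1) (adjusted p = 0.533), which did not pass. The difference of day 12 from day 8 was 0.53 with TMM (SE 0.10, adjusted p = 0.000644), -0.30 with totals alone and -0.91 on log2(TPM + 1). From day 0 to day 12 it was 1.10 with TMM (SE 0.11, adjusted p = 6.33e-07), -0.12 with totals alone and -0.94 on log2(TPM + 1). With globin genes removed, its TPM was 290 and 327 on day 0 and 434 and 368 on day 12.

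Catalase, a peroxisomal enzyme that stays in the red cell cytosol, rose with PRDX2. CAT (gene ID 847, chr11:34438934-34472060, plus strand, 1 transcript) was at 328 and 407 TPM at day 0, 487 to 652 TPM (median 615) on days 4 to 6, 563 and 823 TPM at day 8 and 298 and 173 TPM at day 12. Every library of days 4 to 6 lay above those of day 0, and of the 2 libraries of day 8, A lay within the range of days 4 to 6 in TPM and B above it. The log2 fold change to days 4 to 6 was 0.86 (SE 0.15, adjusted p = 0.00216), which became 0.75 without library A of day 0 (adjusted p = 0.0583). From days 4 to 6 to day 8 it was 0.64 (SE 0.14, adjusted p = 0.00747), 0.49 without library B of day 8 (adjusted p = 0.0743) and 0.19 on log2(TPM + 1). Day 12 against day 8 did not pass the test with TMM (-0.13, SE 0.18, adjusted p = 0.553) but was lower on log2(TPM + 1) (-1.58, adjusted p = 6.70e-05). Against day 0 it was 1.36 with TMM (SE 0.18, adjusted p = 1.58e-05) and -0.69 on log2(TPM + 1) (adjusted p = 0.0192).

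Both selenium-dependent peroxidases were higher on day 12 than on day 8 with TMM, and on log2(TPM + 1) GPX4 alone of them passed the test. GPX1 (gene ID 2876, chr3:49357171-49358600, minus strand) was at 284 and 230 TPM at day 0, 97.1 to 161 TPM (median 128) on days 4 to 6, 61.7 and 76.9 TPM at day 8 and 78.0 and 69.6 TPM at day 12. It fell by 0.85 on the log2 scale to days 4 to 6 (SE 0.15, adjusted p = 0.00204), and by 0.65 without library A of day 0 (adjusted p = 0.0710). The lower level of GPX1 on day 8 than on days 4 to 6 did not pass the test with TMM, but did with a block for the set of tables. Between day 8 and day 12 it rose by 1.54 with TMM (SE 0.20, adjusted p = 1.57e-05) and by 0.10 on log2(TPM + 1) (adjusted p = 0.738). The pseudogene GPX1P1 had up to 809 counts, 12.8% of the GPX1 count of that library, and 1 gene model on the same strand shares 572 of the 1432 exon bases of GPX1, so its counts are uncertain. GPX4 (gene ID 2879, chr19:1103994-1106779, plus strand) was at 372 and 342 TPM at day 0, 289 to 380 TPM (median 330.1) on days 4 to 6, 189 and 202 TPM at day 8 and 493 and 608 TPM at day 12. Its rise from day 8 to day 12 was the largest of the 10 genes with TMM and on log2(TPM + 1), 2.97 with TMM (SE 0.21, adjusted p = 7.12e-08) and at least 1.48 under every alternative tried. From day 0 it was 2.70 with TMM (SE 0.21, adjusted p = 8.72e-08) and 0.62 on log2(TPM + 1) (adjusted p = 0.000439). Transcript variant 4 held 88.8% to 94.3% of the GPX4 TPM in the 20 libraries, before and after the rise. It starts at position 1104057, which is 13 bases downstream of the first annotated start codon, that of the long form, and 68 bases upstream of the next one.

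SOD1 (gene ID 6647, chr21:31659693-31668931, plus strand, 1 transcript) stayed between 568 and 1067 TPM in all 20 libraries. It was at 852 and 766 TPM at day 0, 825 to 1026 TPM (median 933) on days 4 to 6, 791 and 797 TPM at day 8 and 605 and 568 TPM at day 12. Neither the value for days 4 to 6 (0.36, adjusted p = 0.127) nor that for day 8 (0.22, adjusted p = 0.295) passed the test, and the former passed with a block for the set of tables (0.36, adjusted p = 0.0365). The difference of day 12 from day 8 was 1.01 with TMM (SE 0.18, adjusted p = 0.000291), 0.18 with totals alone and -0.44 on log2(TPM + 1). Day 12 was above day 0 by 1.59 with TMM (SE 0.18, adjusted p = 3.77e-06) and below it on log2(TPM + 1) (-0.46, adjusted p = 0.00410). The copper chaperone CCS, which loads SOD1 with copper, was at 27.9 and 35.6 TPM at day 0 and 105 and 100.1 TPM at day 12, a rise of 3.73 with TMM (SE 0.27, adjusted p = 4.74e-08) and of 1.67 on log2(TPM + 1).

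**Figure D3:**
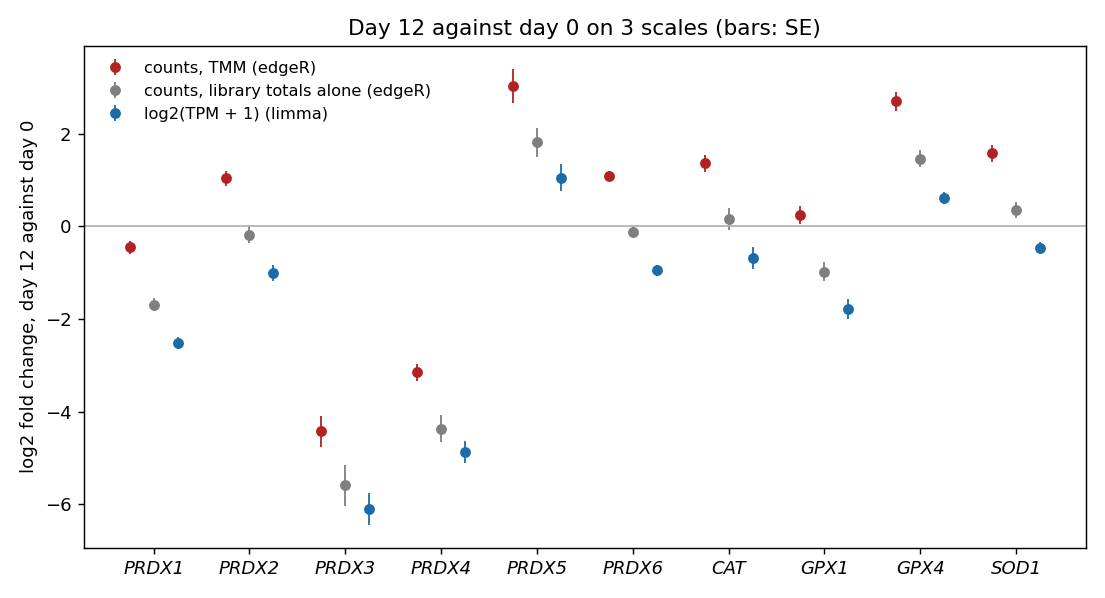
Log2 fold change from day 0 to day 12 (vertical axis) for each of the 10 genes on 3 scales: counts with TMM, counts with library totals alone (both edgeR) and log2(TPM + 1) (limma), with bars for the SE. The points of PRDX5 and GPX4 lie above 0 and those of PRDX1, PRDX3 and PRDX4 below 0 on all 3 scales, while PRDX2, PRDX6, CAT, GPX1 and SOD1 lie on both sides.

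Because PRDX2 rose with CAT and PRDX3 fell with PRDX4, the 250 bases upstream of their transcript starts are shown, from RefSeq on GRCh38.p14, 5′ to 3′ on the strand of the gene. They are chr19:12801801-12802050 on the minus strand for PRDX2, chr11:34438684-34438933 on the plus strand for CAT, chr10:119178813-119179062 on the minus strand for PRDX3 and chrX:23667243-23667492 on the plus strand for PRDX4. Capitals mark matches, on either strand, to a GATA motif (the letters AGATAA, where the first base may also be T and the last base may also be G), a CACCC box (CCNCNCCC) or an antioxidant response element (TGACNNNGC or TGAGNNNGC), and adjacent or overlapping matches run together.
PRDX2: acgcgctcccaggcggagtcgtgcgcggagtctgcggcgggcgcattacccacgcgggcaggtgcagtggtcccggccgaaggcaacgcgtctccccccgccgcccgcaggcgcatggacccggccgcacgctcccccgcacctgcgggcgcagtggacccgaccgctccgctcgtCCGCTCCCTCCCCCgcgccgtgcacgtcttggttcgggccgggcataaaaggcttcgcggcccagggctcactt
CAT: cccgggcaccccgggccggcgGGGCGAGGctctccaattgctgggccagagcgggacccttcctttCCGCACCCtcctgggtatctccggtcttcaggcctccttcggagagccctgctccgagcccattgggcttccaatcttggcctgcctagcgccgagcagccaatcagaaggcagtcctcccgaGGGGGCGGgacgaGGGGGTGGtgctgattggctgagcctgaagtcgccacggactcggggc
PRDX3: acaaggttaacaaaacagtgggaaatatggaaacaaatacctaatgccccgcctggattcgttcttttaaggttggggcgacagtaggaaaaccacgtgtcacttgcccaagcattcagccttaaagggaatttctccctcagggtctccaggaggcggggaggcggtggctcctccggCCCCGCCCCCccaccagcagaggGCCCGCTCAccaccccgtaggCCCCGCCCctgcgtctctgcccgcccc
PRDX4: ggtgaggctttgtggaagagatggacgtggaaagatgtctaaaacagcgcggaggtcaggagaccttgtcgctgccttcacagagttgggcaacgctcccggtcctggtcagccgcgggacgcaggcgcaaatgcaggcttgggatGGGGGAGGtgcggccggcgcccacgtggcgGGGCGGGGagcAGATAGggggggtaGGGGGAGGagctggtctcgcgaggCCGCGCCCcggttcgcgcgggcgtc
Windows were found for 7 of the 10 genes, 10 windows in all. A CACCC box was present in 8 of these windows, a GATA motif in 2 (those of PRDX4 and of the first PRDX5 start) and an antioxidant response element in 1 (PRDX3). Among the 35116 windows of the same length for all genes, 53.4% held a CACCC box, 22.3% a GATA motif and 23.9% an antioxidant response element. CACCC boxes had 2 matches in the PRDX2 window, 4 in that of CAT, 3 in that of PRDX3 and 4 in that of PRDX4. The word CCNCNCCC also takes stretches without the letters CACCC. Of the windows shown, only that of CAT has these letters, on either strand, within its marked stretches. The GPX4 windows that start at 1103744 and 1103807 overlap and hold the same matches. A match describes the sequence and is no evidence of binding.

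Likeness between genes was taken across the 20 libraries in log2 CPM (counts scaled to library size), here with TMM factors. Among 8566 genes with a mean CPM of at least 10, those most like PRDX2 were CAPRIN2 (Pearson r = 0.98), KIAA0930 (r = 0.97) and SLC2A4RG (r = 0.96). Those most like CAT were GYPB, which encodes glycophorin B (r = 0.98), JAK2, the kinase of the erythropoietin receptor (r = 0.98), and KAT2B (r = 0.97). Those most like GPX1 were MAP1S (r = 0.96), RNF44 (r = 0.96) and IRF2BPL (r = 0.95). The points share days and library sets, and these values are descriptions without a test.

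The counts for the lists of related genes stand against the shares of all tested genes with TMM, which were 7.38% higher and 9.22% lower to days 4 to 6, 11.9% and 10.8% to day 8, and 29.7% and 38.5% from day 0 to day 12. On log2(TPM + 1), of all 16784 genes, 760 were higher and 2358 lower to days 4 to 6, 695 and 5213 to day 8, and 1700 and 11032 from day 0 to day 12. In the list of 10 genes of the thioredoxin and sulfiredoxin system, 2 rose and 0 fell to days 4 to 6, 4 rose and 1 fell to day 8, and 7 were higher and 1 lower on day 12 than on day 0 with TMM. On log2(TPM + 1) these counts were 2 and 1, 4 and 2, and 5 and 4. The median log2 fold changes with TMM were 0.12, 0.43 and 2.42. SRXN1, which restores over-oxidized peroxiredoxins, was at 58.0 and 53.6 TPM at day 0, 137 and 93.6 TPM at day 8 and 126 and 111 TPM at day 12, and rose in each step to day 8 (0.64, adjusted p = 0.0246; then 1.04, adjusted p = 0.00101). TXN, the electron donor of peroxiredoxins, was at 406 and 392 TPM at day 0 and 346 and 292 TPM at day 12, and its change to day 12 was 1.72 with TMM and -0.33 on log2(TPM + 1). TXNRD1, which reduces TXN, was at 61.5 and 74.2 TPM at day 0 and 49.4 and 33.8 TPM at day 12. The median of all genes on log2 TPM changed by -1.81 between these days, so the lower TPM of TXNRD1 does not give its direction against the typical gene. TXNIP, an inhibitor of thioredoxin, went from 154 and 110.0 TPM at day 0 to 493 and 268 TPM at day 8 (adjusted p = 0.000341 against days 4 to 6), and from day 0 to day 12 it rose by 3.89 with TMM and 1.86 on log2(TPM + 1). SESN2, a stress-induced sestrin, rose by 7.14 with TMM and 4.70 on log2(TPM + 1), from 2.85 and 3.25 TPM to 113 and 96.3 TPM. SESN3 was 3.32 higher on day 12 than on day 0 with TMM and 1.27 higher on log2(TPM + 1). TXNRD3 had 933 counts in the 2 libraries of day 0 and 0 in those of day 12, which is at least 62.5-fold lower against a floor of 3 counts per library.

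Of 8 genes for glutathione synthesis, reduction and glutaredoxins, 2 rose to days 4 to 6, 3 rose and 1 fell to day 8, and 4 were higher and 3 lower on day 12 than on day 0 with TMM, with median log2 fold changes of 0.00, 0.17 and 0.50. The day 12 shares of all genes were 29.7% higher and 38.5% lower, and the difference from them was not tested. On log2(TPM + 1) the higher and lower counts were 2 and 3, 2 and 4, and 3 and 5. The subunits of the rate-limiting enzyme rose, GCLC from 94.4 and 112 TPM to 290 and 200.2 TPM (3.27 with TMM, 1.22 on log2(TPM + 1)) and GCLM from 18.8 and 15.9 to 53.5 and 33.0 TPM (3.33 and 1.23). Glutathione synthetase GSS, which adds the last residue, fell from 79.4 and 91.7 to 2.68 and 2.22 TPM (-3.08 and -4.65). The cytosolic glutaredoxin GLRX fell from 96.1 and 102 to 1.00 and 0.531 TPM (-4.97 and -5.84), while GLRX5, a mitochondrial glutaredoxin of iron-sulfur cluster assembly, rose to days 4 to 6 (0.95, adjusted p = 0.00941) and was above day 0 on day 12 by 2.95 with TMM and 0.91 on log2(TPM + 1). Glutathione reductase GSR was at 148 and 158 TPM at day 0 and 86.6 and 81.7 TPM at day 12 (1.19 with TMM, -0.85 on log2(TPM + 1)). Of 9 genes of NADPH supply, 1 rose to days 4 to 6, 1 rose and 1 fell to day 8, and 4 were higher and 2 lower on day 12 than on day 0. The shares of all genes were 7.38% higher to days 4 to 6, 11.9% and 10.8% to day 8, and 29.7% and 38.5% to day 12, and the difference from them was not tested. On log2(TPM + 1) the counts of this list were 2 and 1, 0 and 6, and 1 and 8. Over all genes that scale gave 695 higher and 5213 lower to day 8, and 1700 and 11032 from day 0 to day 12. TALDO1, an enzyme of the pentose phosphate pathway, rose by 2.58 with TMM and 0.54 on log2(TPM + 1) from day 0 to day 12. RPE fell by 2.54 and 3.96 on these scales, and ME1 fell from 1081 and 1556 counts to 33 and 0.

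Of 8 genes of the NRF2, BACH1 and FOXO3 group, 3 rose to days 4 to 6 (BACH1, MAFG and FOXO3; 7.38% of all genes), 4 to day 8 (11.9% of all genes), and 7 were higher on day 12 than on day 0 with TMM (29.7% of all genes), with median log2 fold changes of 0.34, 0.74 and 3.45. On log2(TPM + 1), 5 were higher and 1 lower on day 12 than on day 0. The lower one was NQO1, a quinone reductase named here after its values were seen, at 4.02 and 4.12 TPM at day 0 and 0.516 and 0.537 TPM at day 12 (-1.73, adjusted p = 0.000152, and -0.90 with TMM, adjusted p = 0.152). HMOX1, the inducible heme oxygenase that breaks down heme, was at 8.32 and 6.03 TPM at day 0, 122 and 20.4 TPM at day 8 and 582 and 507 TPM at day 12, so the libraries of day 8 stood far apart and those of day 12 close together. Its change from day 0 to day 12 was 8.28 with TMM (SE 0.93, adjusted p = 2.90e-06) and 6.07 on log2(TPM + 1). FOXO3, a transcription factor of late erythroid genes, went from 20.8 and 31.1 TPM to 354 and 202 TPM (5.31, SE 0.34, adjusted p = 1.26e-08, and 3.35 on log2(TPM + 1)). BACH1, the heme-sensitive repressor of HMOX1, went from 23.5 and 30.8 to 90.5 and 52.5 TPM (3.42 and 1.32), MAFG rose by 3.75 and 1.68 and MAFK by 3.49 and 1.36. NFE2L2, which encodes NRF2, was at 77.5 and 82.3 TPM and then 93.4 and 69.3 TPM, a change of 2.06 with TMM and 0.01 on log2(TPM + 1). Of 7 genes of selenoprotein synthesis, SEPHS2 fell to days 4 to 6 (-1.08, adjusted p = 0.000999), as GPX1 did, from 126 and 89.8 TPM at day 0 to values between 38.1 TPM (library A of day 6) and 51.8 TPM (library B of day 5). From day 8 to day 12 it rose by 1.94 with TMM (adjusted p = 8.48e-06) and by 0.51 on log2(TPM + 1) (adjusted p = 0.0357). The SECIS-binding protein gene SECISBP2 rose by 3.01 from day 0 to day 12 with TMM and by 0.88 on log2(TPM + 1). In this list 1 rose and 1 fell to days 4 to 6, 1 rose and 0 fell to day 8, and 4 were higher and 2 lower on day 12 than on day 0, where 29.7% and 38.5% of all genes were. The lower ones on day 12 with TMM were SCLY (-1.30) and TRNAU1AP (-1.10). The counts were 0 and 1, 0 and 3, and 1 and 6 on log2(TPM + 1), where 1700 of all genes were higher and 11032 lower on day 12 than on day 0. Of 7 other superoxide dismutase, chaperone and glutathione peroxidase genes, SOD3, GPX2, GPX7 and GPX8 were too low to test. The mitochondrial SOD2 was at 45.6 and 61.5 TPM at day 0, 14.0 and 24.1 TPM at day 8 and 51.7 and 62.9 TPM at day 12 (1.55 from day 8 with TMM and 1.58 on log2(TPM + 1)), and GPX3 was at most 2.59 TPM in any library.

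**Figure D4:**
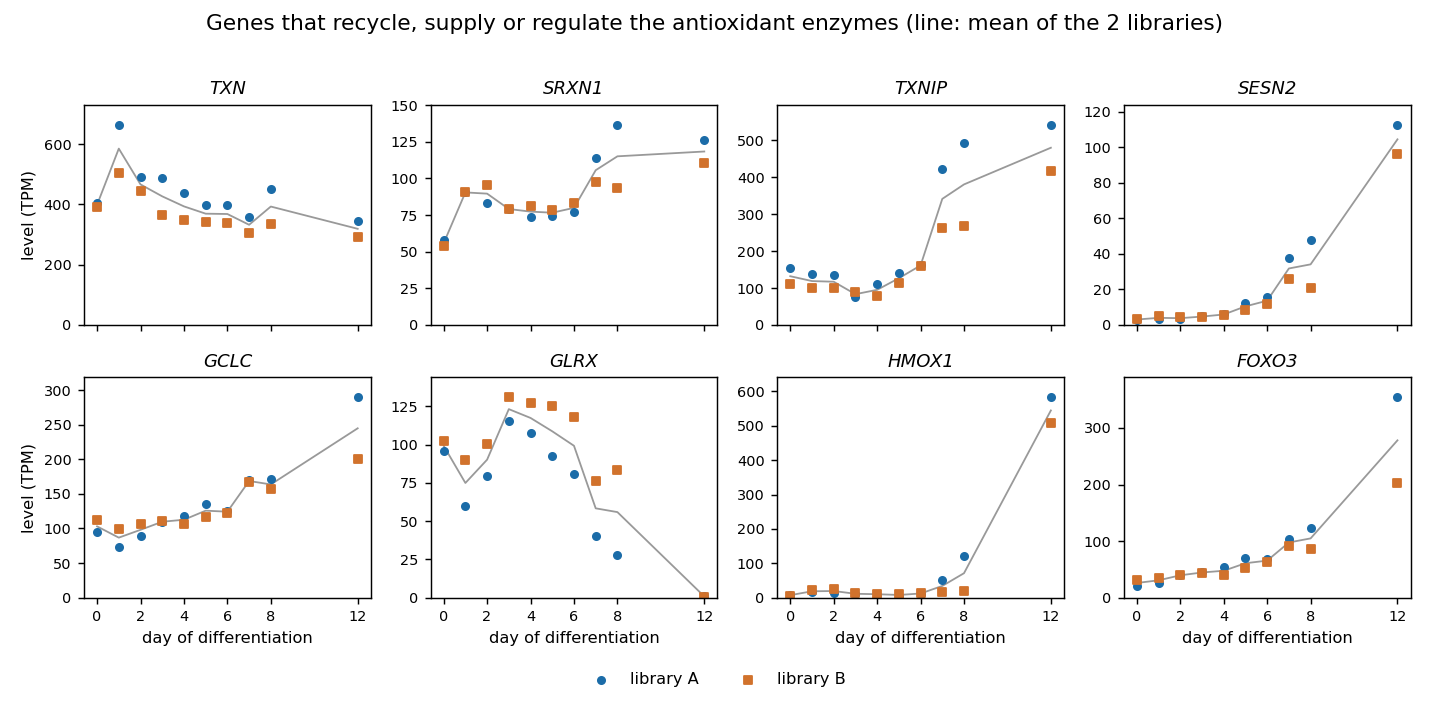
Level (vertical axis, TPM from 0, own scale per gene) of 8 genes that reduce, supply or regulate the antioxidant enzymes against the day of differentiation, with circles for library A, squares for library B and a line through their mean. SESN2, HMOX1, GCLC and FOXO3 have their highest values on day 12 and GLRX its lowest (1.00 and 0.531 TPM), and the 2 libraries of day 8 differ for HMOX1 (122 and 20.4 TPM) and TXNIP (493 and 268 TPM).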

How the data were processed

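Messenger RNA was sequenced in 20 libraries (TruSeq Stranded mRNA kit). The authors deposited 4 tables of RefSeq transcripts on hg38. The submitters' processing notes name Trimmomatic 0.38, HISAT2 2.1.0 and StringTie 2.1.3b. The counts are whole numbers that the authors left without normalization, and the TPM were scaled by the authors to 1000000 per library. Not used were 23 columns, which hold FPKM and 1 more day 0 set, the latter deposited beside day 12. Counts and TPM were summed by gene symbol.

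Counts were tested with edgeR 4.0.16 in R 4.3.3: 1 fit of all 20 libraries with a coefficient per day, filterByExpr, TMM, glmQLFit and glmQLFTest, with Benjamini-Hochberg adjustment over 16784 genes and a threshold of 0.05. On data simulated for day 12 against day 0, with 200 of 16784 genes changed 4-fold, it recovered 88% (100% of the 99 with over 10 CPM), with 4.35% of calls false. In the simulation the changes went up and down in equal number, all other genes stayed level and the globin share did not shift. These rates therefore do not cover errors from the choice of scale on the real day 12. Alternatives were DESeq2 1.42.0, limma 3.58.1 on log2(TPM + 1) and log2(TPM + 0.1), other normalizations, filters and fits, and each library left out in turn. Scaling to totals alone and leaving out library A of days 7 and 8 were added after seeing the data.

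The members and the gene lists were chosen with earlier results of these data known. Named from each list are up to 4 genes with the largest absolute log2 fold change among those passing a comparison, and TXN, TXNRD1, SRXN1, TXNIP, GSR, GLRX5, SOD2, HMOX1, NFE2L2, BACH1, FOXO3 and SEPHS2 whatever their result. A further gene named by this rule is not reported here. Each day has 2 libraries, and 3 counts, the most that a library with none allows, were 0.0426 to 0.0575 CPM, for counting error only. Between the 2 libraries of a day, 65.3% to 78.0% of genes differed beyond sampling noise, so none was counted as 1 sample.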

Additional observations from a re-analysis of the deposited data

How the results depend on the processing

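Across the 10 genes, the 4 comparisons and all alternatives, 678 values stayed on their side of the threshold, 32 lost the call, 29 gained one and 21 reversed. A reversal is a change of sign where the main fit or the alternative passed the test. Changes of sign where neither passed are among the 678. An example is SOD1 on day 8 against days 4 to 6, at 0.22 in the main fit and -0.22 in the lowest alternative. All 21 reversals concern day 12 and the scale. From day 0 to day 12, limma on log2(TPM + 1) and on log2(TPM + 0.1) gave -0.69 and -0.69 for CAT, -1.78 and -1.79 for GPX1, -1.002 and -1.003 for PRDX2, -0.94 and -0.95 for PRDX6, and -0.46 and -0.46 for SOD1, and totals alone gave -0.98 for GPX1, -0.18 for PRDX2 and -0.12 for PRDX6. From day 8 to day 12 the 2 limma fits gave -1.04 and -1.05 for PRDX1, -0.91 and -0.91 for PRDX6, and -0.44 and -0.44 for SOD1, and totals alone gave -0.44 for PRDX1 and -0.30 for PRDX6.

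The count of higher genes went from 6 to 2 for day 12 against day 0 with totals alone and with both limma fits, from 6 to 3 with totals alone and 2 with both limma fits for day 12 against day 8, and from 3 to 0 with all 3 for day 8. The count of lower genes went from 3 to 8 with both limma fits for day 12 against day 0, from 3 to 6 (totals) and 7 (limma) for day 12 against day 8, and from 1 for day 8 to 4 (totals), 5 (limma), 2 (DESeq2, and a block for the set of tables) or 0 (leading transcript, only the days compared, and without library A of days 7 and 8). With single libraries left out the counts for days 4 to 6 ranged from 1 to 2 in each direction, the lower value without library A of day 0, and that of lower genes on day 8 from 0 (without library A of day 8) to 2 (without library A of day 4 or day 5). The call for day 8 was gained by GPX1 without library A of day 4 (-0.51, adjusted p = 0.0465) or day 5 (-0.51, adjusted p = 0.0467), and by PRDX5 without library A of day 6 (0.88, adjusted p = 0.0378) or library B of day 8 (1.08, adjusted p = 0.0267). Over the whole table, 1238 genes were higher and 1547 lower on days 4 to 6, which became 2108 and 2701 with the block for the set of tables and 415 and 456 for the leading transcript. For day 8, 2001 and 1815 became 790 and 625 for the leading transcript and 1300 and 1118 with only the days compared, and the lower ones 3166 with the block. With single libraries left out, 374 to 1107 were higher and 585 to 1353 lower on days 4 to 6, and 199 to 2053 higher and 265 to 1961 lower on day 8. The day 8 counts dropped to 223 higher and 330 lower without library A of days 7 and 8. Apart from the scale and the libraries named, the cause was not tested.

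The share of PRDX2 in the peroxiredoxins on days 0, 8 and 12 was 52.7%, 85.0% and 58.6% of TPM and 46.1%, 80.4% and 55.0% of counts. The block gained calls for GPX1 (-0.44, adjusted p = 0.0296) and PRDX5 (0.72, adjusted p = 0.00222) on day 8 and for PRDX4 (-0.37, adjusted p = 0.0351) and SOD1 (0.36, adjusted p = 0.0365) on days 4 to 6. No paired analysis was possible because the columns carry no replicate number. The block above marks only set A or B, and not the separate tables that make up set A. Depth did not limit the members, whose lowest count was 132.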

Other observations

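Of 13 peroxisome import genes, which bring catalase into the organelle, 1 rose and 0 fell to days 4 to 6, 0 rose and 1 fell to day 8, and 4 were higher and 6 lower on day 12 than on day 0 with TMM, where 29.7% and 38.5% of all genes were. On log2(TPM + 1) the counts for these 3 comparisons were 1 and 0, 0 and 6, and 0 and 12. Of all 16784 genes, 695 were higher and 5213 lower to day 8 on that scale, and 1700 and 11032 from day 0 to day 12. The median log2 fold change from day 0 to day 12 with TMM was -0.50, against -0.29 over all genes. PEX3, a membrane factor needed to form peroxisomes, went from 19.8 and 24.2 TPM at day 0 to 5.72 and 8.22 TPM at day 8 and 0.576 and 0.236 TPM at day 12. PEX7, a receptor for imported enzymes, went from 13.8 and 16.1 to 0.560 and 0.405 TPM. PEX5, the receptor that most imported enzymes use, was at 19.1 and 30.8 TPM at day 0 and 23.4 and 27.9 TPM at day 12, with overlapping values, a change of 2.15 with TMM (adjusted p = 0.000165) and 0.07 on log2(TPM + 1). PEX10 was at 6.33 and 7.38 TPM at day 8 and 7.44 and 7.23 TPM at day 12, a change of 1.60 with TMM (adjusted p = 6.43e-06) and 0.09 on log2(TPM + 1).

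Of 4 methemoglobin and biliverdin reductases, 3 rose to days 4 to 6 (7.38% of all genes) and 2 to day 8 (11.9% of all genes) with TMM. These became 2 and 0 on log2(TPM + 1), where 760 and 695 of all 16784 genes rose. From day 0 to day 12, 2 were higher and 1 lower with TMM (29.7% and 38.5% of all genes). On log2(TPM + 1) 0 were higher and 3 lower, where 1700 and 11032 of all genes were. BLVRB, a reductase of biliverdin and flavins that is abundant in red cells, was at 818 and 871 TPM at day 0, 1866 and 2130 TPM at day 5, 2334 and 2269 TPM at day 8 and 869 and 840 TPM at day 12. With TMM it rose by 1.34 to days 4 to 6 (adjusted p = 4.21e-05) and by 0.71 to day 8 (adjusted p = 0.00190). On log2(TPM + 1) the latter was 0.27 and did not pass the test (adjusted p = 0.0842). Its change from day 0 to day 12 was 2.07 with TMM (adjusted p = 9.12e-08) and 0.02 on log2(TPM + 1). BLVRA fell from day 8 to day 12, from 141 and 208 TPM to 22.4 and 14.2 TPM. CYB5R3, the methemoglobin reductase, rose by 0.64 to days 4 to 6 (adjusted p = 0.00238). From day 0 to day 12 the change of CYB5R3 was 1.18 with TMM (adjusted p = 5.14e-06) and -0.84 on log2(TPM + 1) (adjusted p = 9.98e-05). Its partner CYB5A was at 36.9 and 35.7 TPM at day 0 and 7.99 and 7.32 TPM at day 12, a change of -0.27 with TMM (adjusted p = 0.136) and -2.11 on log2(TPM + 1).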
